A study of Mus musculus with 194 samples.

Results

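Transcription in the dorsal striatum (DS) was compared between mice taken 2 hr after their first cocaine injection and cocaine-naive mice. The comparison held 8 of the 194 libraries in the series, 4 mice on each side, chosen by their labels as the DS libraries of acute cocaine at 2 hr and 0 hr from 1 sequencing run. Second libraries that were made from 2 of the mice of each group in another run were kept apart and used only as a technical repeat. The series profiled 5 brain structures by 3′-RNA-seq, which counts the 3′ ends of polyadenylated transcripts, after a first, a repeated or a challenge dose of cocaine.

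All mice were male C57BL/6OLAHSD of 6 to 7 weeks at arrival. The study's methods give mice saline by intraperitoneal injection on 3 consecutive days before cocaine. They do not state plainly whether this held for the naive mice. The 2 hr mice then received a single intraperitoneal dose of 20 mg/kg cocaine, whereas the naive mice were taken directly from the home cage. Cocaine and the injection and handling of that day therefore cannot be told apart in this comparison. If the naive mice had no saline, the earlier injections cannot be told apart from cocaine either. Each library was the bulk DS of 1 mouse, so that fewer cells of a type and less RNA per cell cannot be told apart either. Transcripts of striatal projection neurons were present in all 16 libraries of acute cocaine (naive, 1, 2 and 4 hr), with Ppp1r1b, which encodes DARPP-32, at 3800 to 4770 CPM (counts of a gene per 1e6 counts of its library), and Drd1 and Drd2, the D1 and D2 dopamine receptors, at 248 to 355 and 316 to 415 CPM.

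Cocaine blocks the reuptake of dopamine, and dopamine acting on D1 receptors raises cAMP in striatal projection neurons. Within minutes, transcription factors already present in the neuron, CREB and SRF among them, switch on immediate-early genes, many of which encode transcription factors of the FOS, EGR and NR4A families. Their transcripts decay quickly, and a later wave of genes follows, which encode secreted, synaptic and signalling proteins.

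Libraries of the 8 mice held 1441582 to 5524281 counted reads, with the smallest in naive mouse 2 and the largest in 2 hr mouse 2. The numbers of mice are only names. Naive mouse 1 carried transcripts of the choroid plexus and meninges. Fmod, a proteoglycan of connective tissue, was at 67.4 CPM there and at 0.94 to 4.89 CPM in the other naive mice. Similarly, 1500015O10Rik, a secreted protein of the choroid plexus, was at 307 CPM in naive mouse 1 and at 0.82 to 6.29 CPM in the others. Of 12186 genes tested, 81 were called at 2 hr (0.665% of genes, edgeR quasi-likelihood test, adjusted p under 0.05 and a fold over 1.2), of which 69 were higher (0.566%) and 12 were lower (0.0985%). All 4 mice at 2 hr lay above all naive mice for 46 of the 69 (3.14% of all genes) and below them for 8 of the 12 (2.44%). Without naive mouse 1, 46 genes were called (0.374%), 41 higher (0.333%) and 5 lower (0.0407%), and 38 of the 69 and 2 of the 12 kept their call. A fit of the 8 libraries alone, without the spread of the 1 and 4 hr mice, called 6 genes, all among the 69, and leaving out 2 hr mouse 2 left 10.

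Genes with higher transcript levels at 2 hr were led by transcription factors of the immediate-early class. Of 16 such factors tested, 8 rose and 0 fell, and the median log2 fold change (log2FC) was 0.52, while that of all genes was -0.00126. Fosb, Nr4a3, Fosl2, Egr4, Egr1, Egr3, Srf and Crem rose, 6 of 16 without naive mouse 1, where Srf and Crem were not called (adjusted p = 0.079 and 0.0574, edgeR) although their log2FC hardly moved, from 0.42 to 0.40 and from 0.63 to 0.67. In the second libraries the log2FC was 0.18 for Srf and 0.07 for Crem, and neither was called. Fos, Junb, Jun and Npas4, which are among the fastest genes of this class, were not called at 2 hr, with log2FC of -0.68, -0.32, -0.14 and -0.96. The other uncalled members were positive, Egr2 at 0.90 ± 0.28 (adjusted p = 0.122, edgeR), Nr4a1 at 0.40, Klf10 at 0.10 and Jund at 0.09. Fos was at 19.0, 11.9, 4.69 and 5.18 CPM in naive mice and at 3.87, 5.87, 6.65 and 7.54 CPM at 2 hr. Its naive values thus spread more widely than those at 2 hr, and without naive mouse 1 its log2FC was -0.06. Without that mouse, the log2FC of Junb, Jun and Npas4 was -0.41, 0.10 and -0.48, and none of them was called.

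Promoter sequences of Fosb, Nr4a3, Arl5b, Egr4 and Srf are shown because these genes rose at 2 hr and carry the letters through which CREB and SRF are known to bind. The sequences are from RefSeq on build GRCm38.p6 and are written 5′ to 3′ on the strand of the gene. Capitals mark the cAMP response element (CRE), TGACGTCA, the CRE core, TGACG on either strand, and in Srf also the CArG box, the motif that SRF binds. Fosb lies at chr7:19310076-19310130 on the minus strand, Nr4a3 at chr4:48045055-48045129 on the plus strand, Arl5b at chr2:15055174-15055239 on the plus strand, Egr4 at chr6:85513669-85513791 on the minus strand and Srf at chr17:46556190-46556388 on the minus strand. All 5 stretches lie before the RefSeq start of the gene and outside of the exons that the GENCODE annotation gives it. That of Arl5b lies inside the whole gene as GENCODE gives it, chr2:15049395-15082456, and the others lie outside of theirs.
Fosb: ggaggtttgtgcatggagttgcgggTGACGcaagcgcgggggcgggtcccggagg
Nr4a3: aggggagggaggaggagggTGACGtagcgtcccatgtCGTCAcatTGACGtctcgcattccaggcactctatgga
Arl5b: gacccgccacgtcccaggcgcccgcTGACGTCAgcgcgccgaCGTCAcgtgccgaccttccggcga
Egr4: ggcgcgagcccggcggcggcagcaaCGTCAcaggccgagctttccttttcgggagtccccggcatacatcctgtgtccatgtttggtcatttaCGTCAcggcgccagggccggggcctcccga
Srf: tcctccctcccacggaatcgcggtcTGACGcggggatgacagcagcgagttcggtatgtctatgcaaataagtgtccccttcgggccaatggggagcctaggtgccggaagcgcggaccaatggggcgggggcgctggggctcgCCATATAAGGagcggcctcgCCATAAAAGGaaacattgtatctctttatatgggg

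The Nr4a3 stretch holds 3 CRE cores, and that of Arl5b holds 1 full CRE and a further core, where the letters of the full CRE contain the core on both strands. Among genes that rose, 52 had a promoter in the RefSeq table (250 bases before to 50 after the start). A full CRE was found in 5 of the 52 (9.62%) and in 353 of 9585 promoters of all genes tested (3.68%). The core was found in 27 of the 52 (51.9%) and in 35.9% of all genes tested. The AP-1 site, TGAGTCA on either strand, was in 3.85% of the genes that rose and 4.2% of all, and the CArG box in 1.92% and 1.55%. Of the 12 genes that fell, 10 had a promoter, and 1 of these held a full CRE and 4 a core. A match is a description of the letters, and no match says only that they are not in this window.

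Fosb, a partner of JUN proteins in the AP-1 complex, was at 26.1, 26.5, 14.1 and 14.4 CPM in naive mice 1 to 4 and at 22.3, 76.4, 63.9 and 64.9 CPM in 2 hr mice 1 to 4. Thus, 2 hr mouse 1 lay within the naive range, while the other 3 mice were above it by a wide margin. The log2FC was 1.59 ± 0.27 (SE, adjusted p = 0.00457, edgeR).

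Nr4a3, an orphan nuclear receptor, was at 31.5, 18.2, 19.7 and 24.0 CPM in the naive mice and at 37.1, 85.0, 77.2 and 70.0 CPM at 2 hr. All mice at 2 hr were above all naive mice, although mouse 1 exceeded the highest naive mouse by little. The log2FC was 1.51 ± 0.21 (adjusted p = 0.000606, edgeR), and Nr4a3 was called in all 20 of the alternative settings and mice left out that were tried.

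Egr4, a zinc finger factor, was at 52.9, 77.5, 71.2 and 59.1 CPM in the naive mice and at 75.5, 184, 160 and 176 CPM at 2 hr, and again 2 hr mouse 1 lay within the naive range. Its log2FC was 1.23 ± 0.18 (adjusted p = 0.000606, edgeR). Fosl2, a further AP-1 member, rose by 1.25 ± 0.22 on the log2 scale, and its level in 2 hr mouse 1 was 21.9 CPM beside 16.4 to 21.7 CPM in naive mice. Egr1 rose by 0.74 ± 0.13 and Egr3 by 0.72 ± 0.12, with Egr3 at 238 CPM in 2 hr mouse 1, at 402 to 442 CPM in the other 3 and at 198 to 247 CPM in naive mice.

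Activity-regulated effectors, which act at synapses or are secreted, held fewer calls. Of 20 tested, 3 rose and 0 fell, 18 had a positive log2FC and the median was 0.29. Inhba, which encodes the activin A subunit, was at 24.4, 21.7, 26.9 and 22.3 CPM in naive mice and at 28.1, 62.4, 56.9 and 47.9 CPM at 2 hr, with no overlap and a log2FC of 1.04 ± 0.18 (adjusted p = 0.00457, edgeR). Nptx2, a pentraxin that clusters AMPA receptors, rose by 0.96 ± 0.17 and Homer1, a postsynaptic scaffold, by 0.57 ± 0.12. Homer1 was at 341 CPM in 2 hr mouse 1, inside the naive range of 326 to 397 CPM, and at 577 to 630 CPM in the other 3 mice. In the second libraries none of the 3 was called. Inhba was at 68.2 and 52.2 CPM in naive mice and at 65.7 and 108 CPM at 2 hr (log2FC 0.53), and Nptx2 at 29.7 and 26.6 against 26.2 and 50.7 CPM (0.46), so that mouse 1 was not above both naive mice. The log2FC of Homer1 was 0.04 there, with naive mice 3 and 4 at 755 and 651 CPM and 2 hr mice 1 and 4 at 609 and 835 CPM.

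Feedback genes of kinase signalling were tested next. Of 15 MAP kinase phosphatases and feedback inhibitors, 2 rose and 0 fell (median log2FC 0.14). Dusp14, a phosphatase of MAP kinases, was at 87.1, 82.4, 104 and 97.6 CPM in naive mice and at 119, 325, 235 and 234 CPM at 2 hr. Every 2 hr mouse was above every naive mouse, with mouse 1 closest to them, and the log2FC was 1.30 ± 0.18 (adjusted p = 0.000606, edgeR). Spred2, an inhibitor of RAS signalling to ERK, rose by 0.51 ± 0.12 (adjusted p = 0.0392, edgeR) and was not called without naive mouse 1 (log2FC 0.52, adjusted p = 0.0649). In the second libraries its log2FC was 0.02, with naive mice at 87.7 and 94.3 CPM and 2 hr mice at 87.5 and 96.5 CPM.

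The 12 largest rises among genes also called without naive mouse 1 further held Arl5b, Adgrf5, Dnajb5, Adgrl4 and Ubash3b. Zscan22, a zinc finger gene, rose by 0.93 ± 0.21 with all mice (adjusted p = 0.0324, edgeR) but was not called without naive mouse 1 (log2FC 0.89, adjusted p = 0.0885), and its log2FC was 0.13 in the second libraries. There the log2FC was 0.90 for Arl5b, 0.63 for Dnajb5, 0.53 for Ubash3b and 0.71 for Adgrl4, none of them called. Arl5b, a small GTPase of the ARF-like family, was at 6.29 to 11.9 CPM in naive mice and at 14.2, 32.2, 27.3 and 34.6 CPM at 2 hr (log2FC 1.40 ± 0.22, adjusted p = 0.00233, edgeR). Dnajb5, a co-chaperone of the HSP40 family, was at 49.1 to 54.0 CPM in naive mice and at 62.6, 124, 112 and 111 CPM at 2 hr, with no overlap (log2FC 1.01 ± 0.14). Ubash3b, a tyrosine phosphatase, rose by 0.93 ± 0.19 and was at 26.1 CPM in 2 hr mouse 1, within the naive range of 20.4 to 31.5 CPM.

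**Figure D1:**
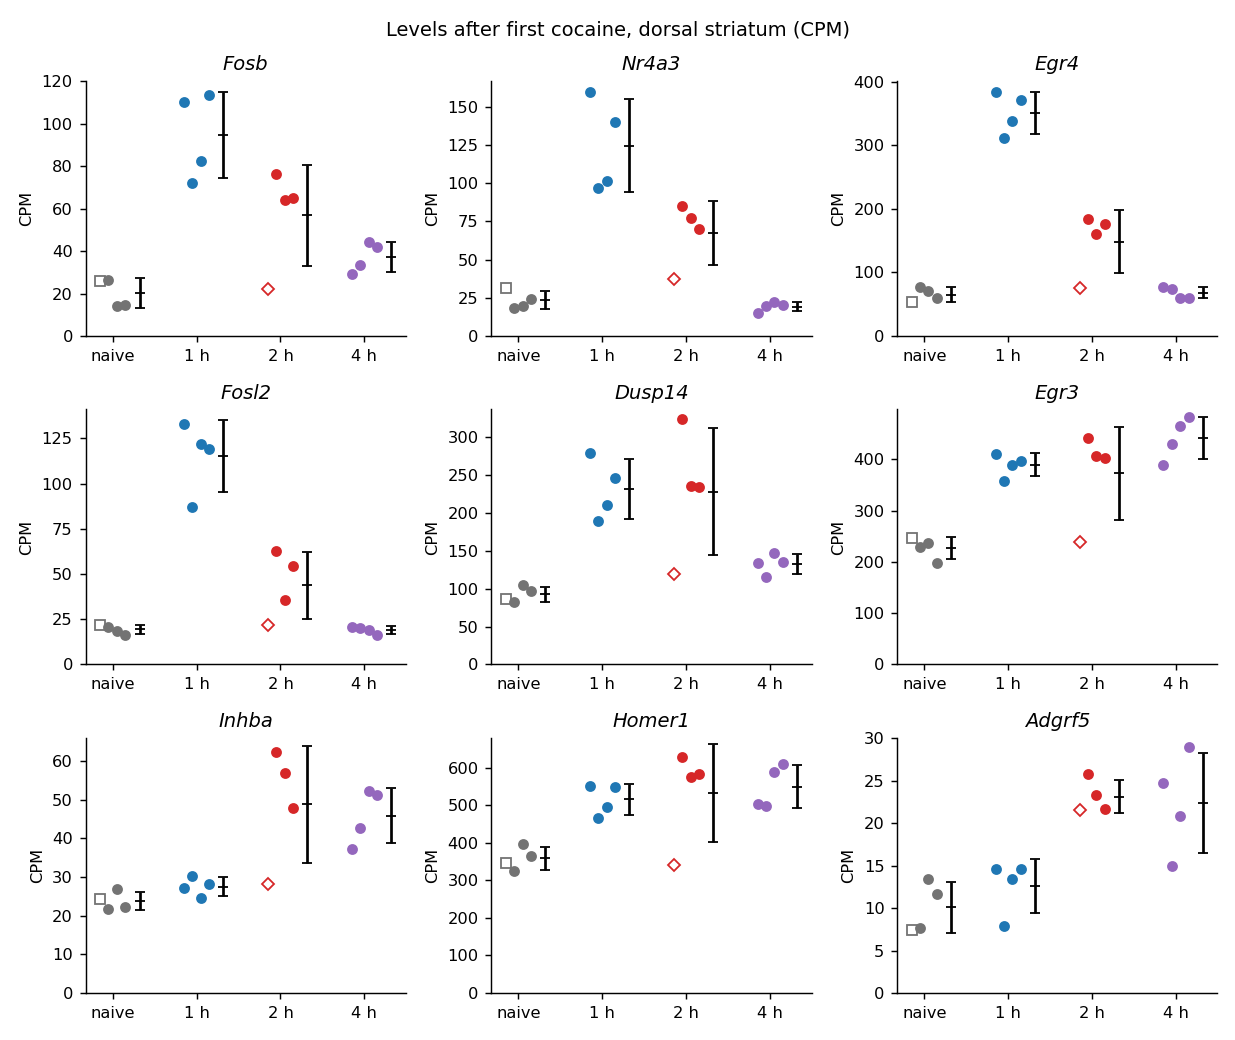
Levels (y axis, CPM) of 9 genes that rose at 2 hr in each mouse of the naive, 1, 2 and 4 hr groups (x axis), with 1 point per mouse and the mean ± SD (n = 4) beside it. The open square is naive mouse 1 and the open diamond 2 hr mouse 1, which stayed near the naive mice for Fosb (22.3 CPM), Egr4 (75.5 CPM) and Homer1 (341 CPM) but not for Adgrf5 (21.6 CPM).

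The mice at 2 hr differed among themselves. As chi-square per degree of freedom, the difference between their libraries was 1.951 for mice 1 and 3 and 1.852 for mice 2 and 4. It was 4.102 to 5.548 for the other pairs, so that mouse 1 was closest to mouse 3 by this measure. Of the 69 genes that rose, 47 were above all naive mice in 2 hr mouse 1, and 69, 69 and 68 in mice 2, 3 and 4, while 16.8% to 24% of all genes tested lay above all naive mice in a given 2 hr mouse. The 22 genes of the 69 for which mouse 1 was not above the naive mice were above them in each of the other 3 mice, and they included Fosb, Egr1, Egr3, Egr4, Crem, Homer1, Nptx2, Ubash3b, Htr1b and Flt1. The median ratio of the 16 immediate-early factors to the naive mean was -0.05 on the log2 scale in mouse 1 and 0.92, 0.38 and 0.76 in mice 2, 3 and 4.

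Second libraries of 2 hr mice 1 and 4 and naive mice 3 and 4 were sequenced in another run. Fosb was at 16.7 CPM in that of 2 hr mouse 1, at 55.7 CPM in the second library of 2 hr mouse 4 and at 8.36 and 11.5 CPM in those of naive mice 3 and 4. Egr4 was at 80.7 CPM in mouse 1, at 203 CPM in mouse 4 and at 76.6 and 65.1 CPM in the naive mice. Egr3 was at 254 CPM in mouse 1, below both naive mice at 295 and 264 CPM, and at 473 CPM in mouse 4. Fosl2 was at 39.9 CPM in mouse 1, at 74.2 CPM in mouse 4 and at 21.4 and 21.2 CPM in the naive mice. For these 4 genes mouse 1 was thus below mouse 4 in the second libraries as well, and it was above both naive mice for Fosb, Egr4 and Fosl2 but not for Egr3. The means and log2FC given for 2 hr include mouse 1, and the reason for its low values was not tested. Leaving out this mouse gave 283 calls, 177 higher and 106 lower, among them all 69 and all 12, and 9 of the 16 immediate-early factors rose, but the mouse was singled out after its values were seen and these counts are only a description.

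**Figure D2:**
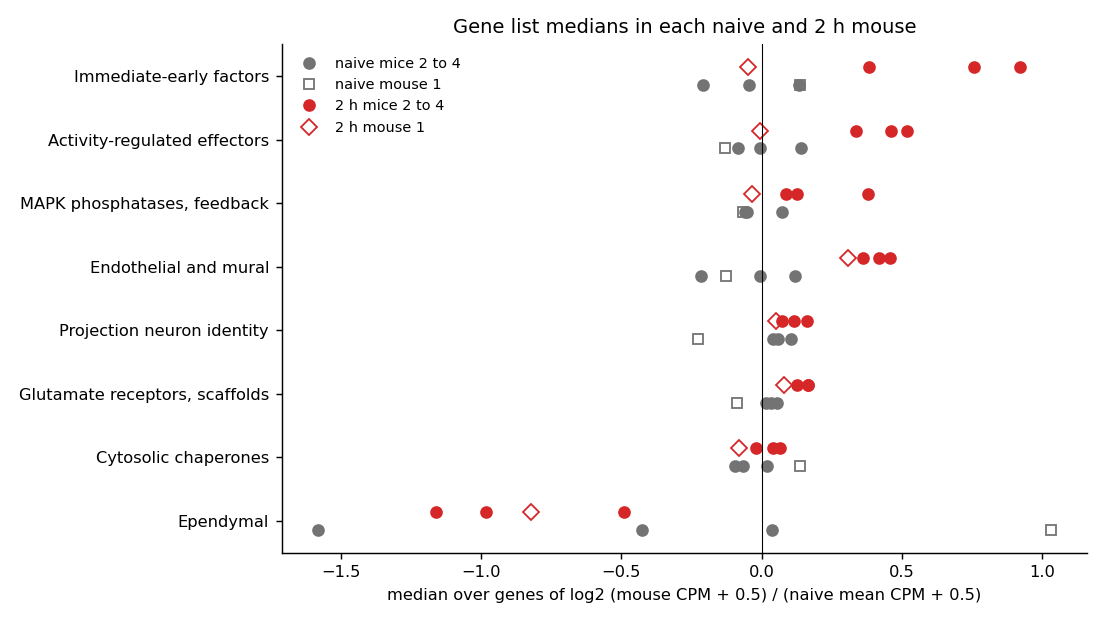
Median over the genes of 8 lists of the log2 ratio of CPM (with 0.5 added) to the naive mean (x axis) in each naive (grey) and 2 hr mouse (red). 2 hr mouse 1 (open diamond) sits with the naive mice for immediate-early factors (-0.05) and activity-regulated effectors (-0.00796) and with the other 2 hr mice for endothelial and mural markers (0.31), while naive mouse 1 (open square) stands apart for ependymal markers (1.03).

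Markers of blood vessels were considered next. Of 14 markers of endothelial and mural cells, 13 had a positive log2FC with a median of 0.36 (0.35 without naive mouse 1), although only Flt1, the VEGF receptor 1, was called (0.76 ± 0.18, adjusted p = 0.0432, edgeR), and Flt1 was not called without naive mouse 1 (adjusted p = 0.121). The remaining member, Acta2, the actin of smooth muscle, had a log2FC of -1.67 (adjusted p = 0.12, edgeR), and of 0.17 without naive mouse 1. No member of the list was called without that mouse. The summed level of the 14 was 407 to 476 CPM in naive mice and 505 to 565 CPM at 2 hr, with no overlap. In 2 hr mice 1 to 4 the list medians were 0.31, 0.46, 0.36 and 0.42 on the log2 scale, so that mouse 1 stood with the others here.

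Adgrf5 and Adgrl4, adhesion receptors of endothelial cells, were among the 12 largest rises that were also called without naive mouse 1. Adgrf5 was at 7.45, 7.68, 13.4 and 11.7 CPM in naive mice and at 21.6, 25.8, 23.3 and 21.7 CPM at 2 hr, with no overlap and little spread between the 2 hr mice (log2FC 1.15 ± 0.22, adjusted p = 0.0129, edgeR). Adgrl4 was at 6.78 to 11.4 CPM in naive mice and at 15.1 to 22.2 CPM at 2 hr (log2FC 0.96 ± 0.18, adjusted p = 0.013, edgeR). Both were also called without naive mouse 1 (adjusted p = 0.0381 and 0.0473, edgeR).

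Further vascular genes were called outside of the list and were picked out after their values were seen. Ly6a, a surface antigen of endothelial cells, was at 45.4 to 59.7 CPM in naive mice and at 76.5 to 84.6 CPM at 2 hr, where mouse 1 was the highest. Slc2a1, the glucose transporter of the blood-brain barrier, rose by 0.49 ± 0.12, and Ece1, which processes endothelin, by 0.59 ± 0.12. Cd34, Ptprb, Cxcl12 and Abcb1a rose by 0.88, 0.86, 0.82 and 0.80 on the log2 scale and were not called without naive mouse 1 (adjusted p = 0.123, 0.16, 0.0885 and 0.128, edgeR). Vegfa, the ligand of the VEGF receptors, rose by 0.60 ± 0.13 and was not called without naive mouse 1 (adjusted p = 0.0885, edgeR).

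Markers of other cells held 0 called genes among 12 of oligodendrocytes (median 0.11), 8 of their precursors (0.07), 12 of astrocytes (0.000438), 12 of microglia (0.03), 11 of projection neurons (0.12), 9 of interneurons (-0.06), 9 of cortical and hippocampal excitatory neurons (-0.13) and 5 of blood cells (0.24). Without naive mouse 1, these medians were 0.04, 0.24, 0.03, 0.006, 0.04, -0.08, -0.12 and 0.12 in the same order, again with 0 calls. Of 13 markers of the choroid plexus and meninges, 0 rose and 2 fell, with a median of -0.47, and -0.19 without naive mouse 1. Whether the share of these cells in the dissected tissue had a part in the vascular values was not tested.

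In the second libraries, the endothelial and mural sum was 371 and 416 CPM in the 2 naive mice and 441 and 447 CPM in the 2 mice at 2 hr, while 2 mice at 1 hr were at 387 and 434 CPM. In that run Adgrf5 was at 15.3 and 15.5 CPM in naive mice and at 18.0 and 26.0 CPM at 2 hr, and Flt1 at 33.4 and 27.4 against 48.1 and 37.1 CPM. Of the 9 vascular genes called outside of the list, 7 were higher in both mice at 2 hr than in both naive mice, as were 18% of all genes. The 9 had been picked from values of the same mice, so nothing is read from this count. Slc2a1 and Cxcl12 were not, with Slc2a1 at 87.7 and 114 CPM in naive mice and at 109 and 92.4 CPM at 2 hr, and Cxcl12 at 31.1 and 19.9 against 26.6 and 27.2 CPM. Of the 69 genes that rose, 63 had a positive log2FC in the second libraries, with a median of 0.23, where 50.3% of all genes were positive and 16 genes were called. These libraries come from mice that also served to choose the 69, so the count is a technical repeat and not independent evidence.

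Most other lists showed few or no calls. No member rose or fell among 20 genes of projection neuron identity and dopamine signalling (median 0.12), 12 neuropeptides and opioid receptors, 18 clock genes, 18 genes responsive to glucocorticoids, 19 rapid-response growth-arrest and mRNA-decay genes, 30 genes of cAMP signalling, 40 genes of axon guidance, 20 cytosolic chaperones and 20 genes of endoplasmic reticulum chaperones and the unfolded protein response. Of 33 potassium channels, 1 rose, Kcnn3 (the SK3 channel, 0.58 ± 0.13). Of 34 glutamate receptors and scaffolds, 2 rose, Grm4 (a presynaptic metabotropic receptor, 0.45 ± 0.10) and Dlg2 (PSD-93, 0.39 ± 0.09). Of 34 chromatin regulators and cofactors, 1 rose, Kdm7a, a histone demethylase (0.48 ± 0.10). Grm4 and Kdm7a were not called without naive mouse 1 (adjusted p = 0.121 and 0.0909, edgeR), and Kcnn3 and Dlg2 were, but in the second libraries the log2FC was -0.07 for Dlg2, 0.07 for Grm4, 0.38 for Kcnn3 and 0.23 for Kdm7a, none of them called.

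Among the genes with lower levels at 2 hr, 1500015O10Rik, C3 and Igfbp2 had the largest log2FC, -4.86, -3.18 and -2.79, but -0.46, -0.06 and -0.28 without naive mouse 1 (adjusted p = 0.762, 0.967 and 0.717, edgeR). C3, a complement component, was at 160 CPM in naive mouse 1 and at 4.37 to 6.29 CPM in the other naive mice, and Igfbp2 at 252 beside 9.81 to 24.4 CPM. Rsph9, a protein of motile cilia, had a log2FC of -1.10, and -0.80 without this mouse (adjusted p = 0.155). The ependymal list had 0 calls of 10, with a median of -0.84, and -0.25 without naive mouse 1.

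**Figure D3:**
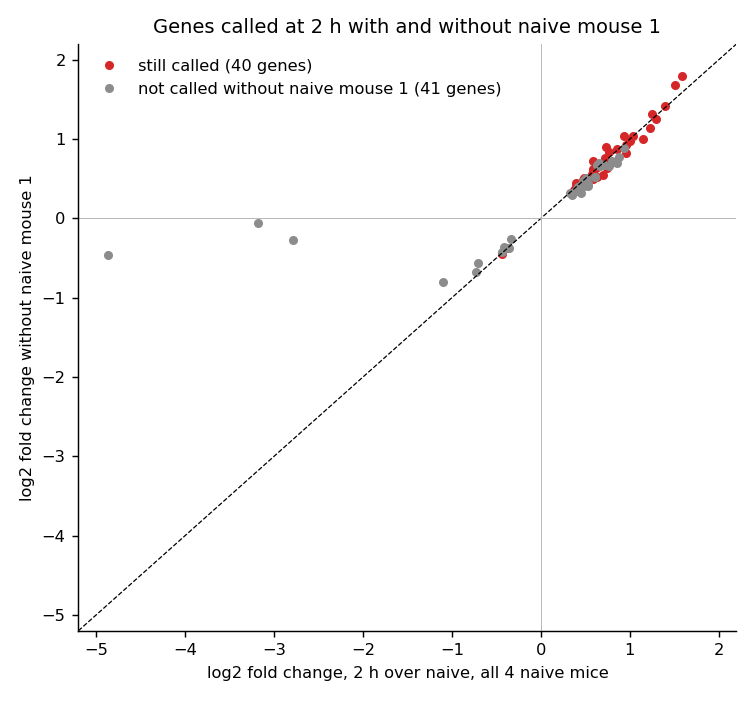
The log2 fold change of the 81 called genes at 2 hr over naive with all naive mice (x axis) against that without naive mouse 1 (y axis), with the dashed line marking equal values. The 40 genes in red kept their call and lie near the line, and of the 41 in grey 1500015O10Rik, C3 and Igfbp2 moved from below -2.5 to near 0.

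Dnajc19, part of the mitochondrial import machinery, and Rps14, a ribosomal protein, were the 2 falls that were kept. Dnajc19 was at 73.4 to 76.8 CPM in naive mice and at 60.7, 49.6, 60.2 and 53.2 CPM at 2 hr, with no overlap (log2FC -0.43 ± 0.09, adjusted p = 0.0263, edgeR). Its direction turned in the second libraries (0.07), where naive mice were at 59.0 and 58.4 CPM and 2 hr mice at 60.1 and 63.1 CPM. Rps14 was at 1337 to 1492 CPM in naive mice and at 1182, 953, 1262 and 983 CPM at 2 hr (log2FC -0.37 ± 0.09, adjusted p = 0.0442, edgeR). Of 76 genes of cytosolic ribosomal proteins, a list made after the values were seen, 75 had a negative log2FC with a median of -0.26, and Rps14 was the only one called. Their summed level was 39580 to 44210 CPM in naive mice and 38810, 30520, 39890 and 31540 CPM in 2 hr mice 1 to 4, so that mice 2 and 4, in which the immediate-early factors were highest, were the lowest here. Mice 2 and 4 also had the largest of the 8 libraries, with 5524281 and 4416307 counts, beside 3079729 and 2733501 in 2 hr mice 1 and 3. The part of library size in the ribosomal shift, and of that shift in the other changes, was not tested.

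To place 2 hr in the time course, it was set against 1 and 4 hr in the same fit. These contrasts share the 2 hr mice with the contrast to naive mice. Of the 106 genes that differed between 2 and 1 hr (0.87% of genes), 42 were higher (0.345%) and 64 lower (0.525%) at 2 hr. Between 2 and 4 hr, 10 genes differed (0.0821%), 8 higher (0.0656%) and 2 lower (0.0164%). When 1 mouse was left out, the counts ranged from 46 to 223 against 1 hr and from 2 to 17 against 4 hr. Of the 69 genes that rose, 12 were higher and 5 lower than at 1 hr, and 8 were higher and 0 lower than at 4 hr. Against naive mice, 22 of the 69 were also called at 1 hr, where 0.624% of genes were called higher and 0.041% lower, and 14 at 4 hr, where 0.287% were higher and 0.0246% lower. These calls use the same naive mice as the choice of the 69, so some overlap is favoured by that alone. The highest mean was at 1 hr for 16 of the 69, at 2 hr for 42 and at 4 hr for 11, while 22.8%, 23.8% and 23.1% of all genes peaked at these times. Since the 69 were chosen for being higher at 2 hr than in naive mice, a highest mean at 2 hr is favoured by the choice.

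The first pattern was a decline from 1 hr. Nr4a3, Fosl2, Egr4 and Egr1 were lower than at 1 hr and higher than at 4 hr. Nr4a3 averaged 124 ± 30.4 CPM (SD, n = 4) at 1 hr, 67.3 ± 21.1 at 2 hr and 19.2 ± 3.03 at 4 hr, where naive mice were at 23.3 ± 5.98. The difference from 1 hr was -0.87 ± 0.17 on the log2 scale (adjusted p = 0.00997, edgeR) and that from 4 hr 1.82 ± 0.21 (adjusted p = 3.59e-05, edgeR). Egr4 averaged 351 CPM at 1 hr, 149 CPM at 2 hr and 67.9 CPM at 4 hr. The whole list of immediate-early factors had 11 of 16 higher at 1 hr against naive (median 1.77), 8 at 2 hr and 1 at 4 hr (median -0.01), with Egr3 as the one that was called at 4 hr.

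The second pattern was a level that was similar at 1 and 2 hr and lower at 4 hr. Dnajb5 averaged 112 CPM at 1 hr, 102 CPM at 2 hr and 61.8 CPM at 4 hr, and it was higher at 2 than at 4 hr by 0.75 ± 0.13 (adjusted p = 0.00743, edgeR). Dusp14 was at 231, 228 and 133 CPM, but its difference from 4 hr was not called (0.79 ± 0.17, adjusted p = 0.0892, edgeR). Peli1, a ubiquitin ligase, and Irs2, an adaptor of the insulin receptor, were also higher than at 4 hr, by 0.66 and 0.77, and were named after their values were seen.

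The third pattern was a level near that of naive mice at 1 hr and a higher one at 2 and 4 hr. Inhba averaged 27.5 ± 2.34 CPM at 1 hr (naive mice 23.8 ± 2.34), 48.8 ± 15.1 CPM at 2 hr and 45.9 ± 7.13 CPM at 4 hr, a difference between 2 and 1 hr of 0.84 ± 0.16 (adjusted p = 0.00896, edgeR). Adgrf5 followed this course, with 12.6, 23.1 and 22.4 CPM at 1, 2 and 4 hr (2 over 1 hr 0.88 ± 0.20, adjusted p = 0.0304, edgeR), as did Flt1 with 17.6, 30.4 and 30.8 CPM (0.81 ± 0.17, adjusted p = 0.0169, edgeR). Against naive mice at 4 hr, Inhba and Adgrf5 were called (log2FC 0.94 and 1.11, adjusted p = 0.0148 and 0.0216, edgeR) and Flt1 was not (0.76, adjusted p = 0.0577). The endothelial and mural sum was 394 to 443 CPM at 1 hr, 505 to 565 CPM at 2 hr and 517 to 562 CPM at 4 hr, and its median log2FC over naive was -0.08, 0.36 and 0.51.

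Egr3 and Homer1 were called against naive mice at all 3 times. Egr3 averaged 389, 372 and 442 CPM at 1, 2 and 4 hr and Homer1 516, 533 and 550 CPM, where naive mice were at 227 and 359 CPM.

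**Figure D4:**
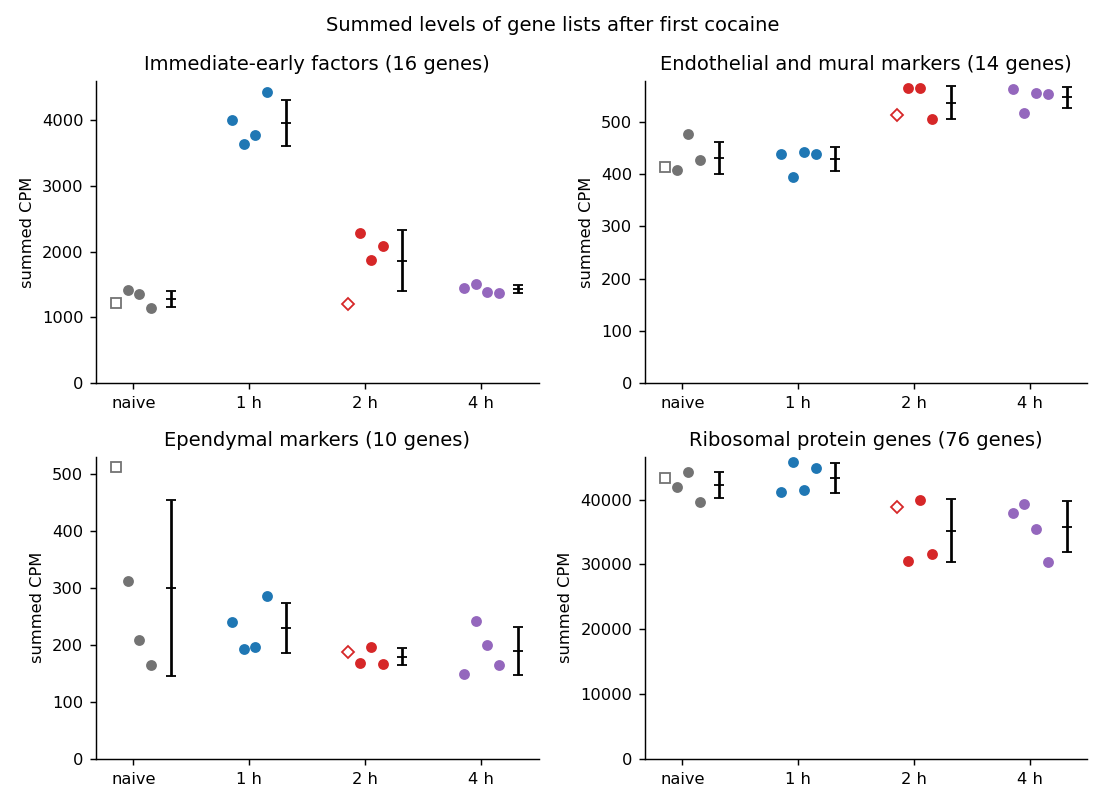
Summed CPM (y axis) of 4 gene lists in each mouse of the naive, 1, 2 and 4 hr groups (x axis), with the mean ± SD (n = 4) beside the points, the open square for naive mouse 1 and the open diamond for 2 hr mouse 1. Endothelial and mural markers are at 394 to 476 CPM in naive and 1 hr mice and at 505 to 565 CPM at 2 and 4 hr, while ribosomal protein genes reach their lowest sums, from 30400 CPM, at 2 and 4 hr.

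The 2 hr response was next compared with that of other mice after repeated cocaine (the fifth of 5 daily doses, 4 mice at 0 hr and 5 at 2 hr) and after a challenge dose that followed 21 days of abstinence (3 mice at 0 hr and 4 at 2 hr). These mice were sequenced in another run, and each change was taken within its run in a fit of all 48 DS libraries. The mice of repeated cocaine came from 2 experiments by their labels, with 2 of the 4 mice at 0 hr and 3 of the 5 at 2 hr in the first of these. Neither group of 0 hr mice was naive. Those of repeated cocaine had received the earlier daily doses, and those of challenge were abstinent after repeated cocaine. A difference from first cocaine therefore also holds any difference between these 0 hr mice and naive mice. In these other mice, 57 of the 69 genes had a positive log2FC after repeated cocaine and 59 after challenge, where 50.2% and 50.4% of all genes were positive. In this fit, 1.07% of genes were called after first cocaine (0.619% higher, 0.449% lower), 0.0852% after repeated cocaine and 0.224% after challenge, all of the last being higher. The median log2FC of the 69 was 0.59 after first cocaine, 0.25 after repeated cocaine and 0.33 after challenge, of which the first is raised by the choice of the genes on those mice. Of the 69, 8 were called higher after repeated cocaine (0.0774% of all genes) and 19 after challenge.

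Fosb, Nr4a3, Fosl2, Egr4 and Dusp14 rose at 2 hr in all 3 experiences. Nr4a3 changed by 1.51 ± 0.25, 2.59 ± 0.27 and 2.28 ± 0.25 after first, repeated and challenge cocaine, and Egr4 by 1.23 ± 0.19, 1.44 ± 0.19 and 1.46 ± 0.20. The difference of Nr4a3 between first and repeated cocaine, -1.08 ± 0.38, did not pass (adjusted p = 0.497, edgeR). Inhba rose after first and challenge cocaine (1.04 ± 0.18 and 1.06 ± 0.17) and had a log2FC of 0.35 ± 0.16 after repeated cocaine, a difference of 0.69 ± 0.24 that did not pass either (adjusted p = 0.498).

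The endothelial and mural list, tested in these other mice, had medians of -0.07 after repeated cocaine and -0.08 after challenge. Adgrf5 changed by 1.15 ± 0.23 after first cocaine, by -0.05 ± 0.21 after repeated cocaine and by -0.38 ± 0.23 after challenge. The difference from repeated cocaine did not pass (adjusted p = 0.293, edgeR), nor did that of 1.53 ± 0.32 from challenge (adjusted p = 0.0995).

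Tested across all genes, 1 gene of 12918 differed in its 2 hr change between first and repeated cocaine (0.00774%). Acvr1, a type I receptor for activins and bone morphogenetic proteins, was at 15.6, 23.8, 22.2 and 19.1 CPM in naive mice and at 24.2, 37.9, 33.3 and 26.4 CPM 2 hr after first cocaine. Every mouse at 2 hr was above every naive mouse. The rise was not called in the fit of acute cocaine (adjusted p = 0.0503, edgeR). In the fit of 48 libraries its change was 0.63 ± 0.14 after first cocaine and -0.41 ± 0.12 after repeated cocaine, a difference of 1.04 ± 0.19 (adjusted p = 0.00712, edgeR). The difference was 0.92 without naive mouse 1 (adjusted p = 0.124), 0.90 without 2 hr mouse 2 (adjusted p = 0.155) and 0.94 without the 0 hr mouse 2 of repeated cocaine (adjusted p = 0.0703). With the experiment of the repeated cocaine mice as a block, chosen after seeing the data, it was 1.05 ± 0.19 (adjusted p = 0.00698). In the second libraries Acvr1 had a log2FC of -0.03. Between first cocaine and challenge, 0 genes passed by edgeR and 2 by DESeq2. An unadjusted p under 0.05 (edgeR) was reached by 945 of 12918 genes, where a share of 0.05 is reached with no difference at all.

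**Figure D5:**
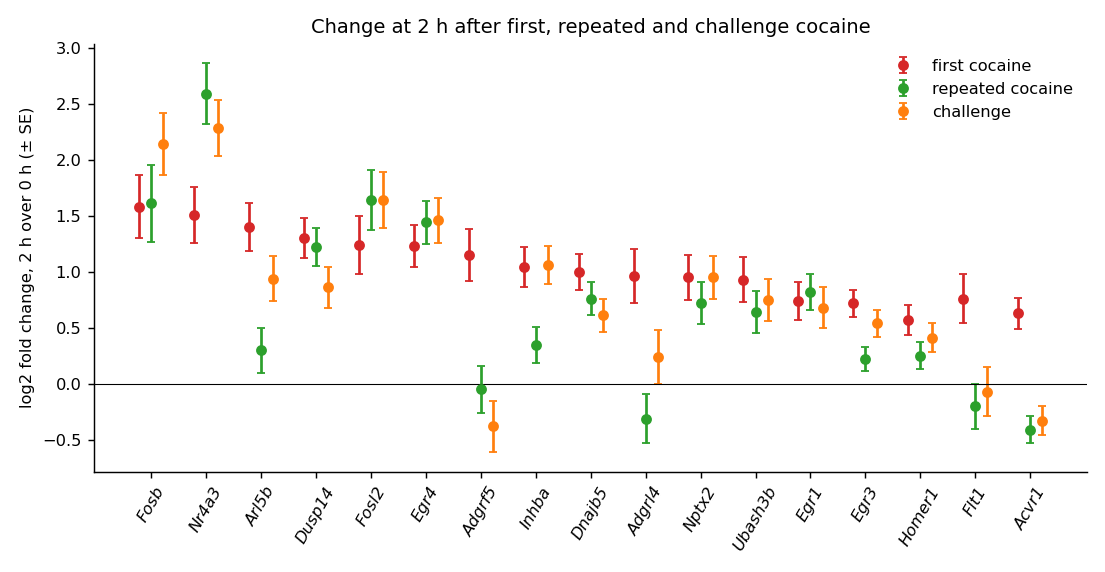
The log2 fold change at 2 hr over 0 hr (y axis, ± SE) of 17 genes (x axis) after first (red), repeated (green) and challenge cocaine (orange), from 1 fit of 48 DS libraries. Fosb, Nr4a3, Fosl2, Egr4 and Dusp14 lie above 0 in all 3, whereas Adgrf5 is at 1.15 after first cocaine and at -0.05 and -0.38 after repeated cocaine and challenge.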

How the data were processed

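Each library was made from the bulk DS of 1 mouse by 3′-RNA-seq. The authors deposited whole-number counts of reads per gene, not normalized, for 19363 genes and 194 libraries. Per the submitters' processing notes and the study's methods, PCR copies had been collapsed by unique molecular identifier, STAR was the aligner (build GRCm38) and HTSeq assigned reads to genes. Versions are not given in the sources used here. CPM are counts per 1e6 of the library size scaled by TMM.

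The 16 first libraries of acute cocaine (naive, 1, 2 and 4 hr, 4 mice each) were fitted together with edgeR 4.0.16 in R 4.3.3 (filterByExpr by group, TMM, quasi-likelihood F test), and differences between experiences were fitted on 48 DS libraries. Genes were called at a Benjamini-Hochberg adjusted p under 0.05 over all genes tested and a fold over 1.2. SE are those of the log2FC. In simulated data, 2 hr against naive recovered 34 of 67 genes changed 1.5-fold, 54 of 67 changed 2-fold and 59 of 66 changed 3-fold, with 6 false calls over 12186 genes. For the difference between first and repeated cocaine, 23 of 67, 42 of 67 and 55 of 66 were recovered, with 1 false call over 12918 genes. The simulation gave every mouse of a group the same expected level, scaled to its library size, with the spread drawn separately for each gene. It held no mouse that differed across many genes, as naive mouse 1 and 2 hr mouse 1 did. These counts therefore need not hold for the data.

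The members, lists and named genes were chosen with earlier results of these data known. Named genes were the 12 largest rises and falls that are also called without naive mouse 1, every called member of a list, the 5 largest changes lost without that mouse, genes that also differ from 1 and 4 hr, and the 3 genes with the smallest p in each direction of a difference between experiences. A list of mitochondrially encoded mRNAs and Gpr52 and Bcl11b were not analysed here. Libraries of a group differed by more than sampling noise (chi-square per degree of freedom 1.72 to 8.09 over 24 pairs). Alternatives covered the scaling (RLE), DESeq2 1.42.0, the filter, a replicate block, leaving out each mouse, the libraries fitted, second libraries, thinning and a fold over 1.5. Motifs were counted in RefSeq promoters, and figures were drawn with Python 3.11.15 and matplotlib 3.10.9. Libraries held 1441582 to 5524281 counts, so genes of a few CPM rest on few counts. Animals are separate per the labels.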

Additional observations from a re-analysis of the deposited data

Results flagged for a closer look

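Among 118 sets of 4 mice (named genes and summed lists, naive and 2 hr), 7 held a mouse far from the other 3 by Dixon's test. Chance flags about 1 in 20 such sets, but 1500015O10Rik, Fmod, C3 and Igfbp2 were entered because they mark naive mouse 1 or lose their call without it, so their values are a description and the number of flags cannot be set against that share. Naive mouse 1 was the highest for 1500015O10Rik (306.9 CPM, the others up to 6.29), C3 (160.2 CPM, up to 6.29), Igfbp2 (252.4 CPM, up to 24.4) and Fmod (67.4 CPM, up to 4.89), and the lowest for the summed genes of cAMP signalling (8747 CPM, the others 9954 to 10080). At 2 hr, mouse 3 was the highest for Spred2 (69.5 CPM, the others 56.7 to 57.2), and mouse 1 the lowest for summed cytosolic chaperones (4859 CPM, the others 5345 to 5366). The 2 hr change of Acvr1 differed between first and repeated cocaine by 1.04 on the log2 scale in a test of the difference itself (edgeR).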

How the results depend on the processing

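For 2 hr against naive (81 calls), DESeq2 gave 151 calls (87 higher and 64 lower), no filter 229 (117 higher and 112 lower), the fit without the naive choroid plexus library 46, only the 8 libraries 6, all 48 DS libraries 138 (80 higher and 58 lower), second libraries 16, both libraries of a mouse summed 10, thinning to the smallest library 18 and a fold over 1.5 gave 43. RLE gave 66 (55 higher and 11 lower). Leaving out 1 mouse gave 10 to 283 calls: 46, 34, 128 and 236 without naive mice 1 to 4, and 283, 10, 75 and 26 without 2 hr mice 1 to 4. All 10 calls without 2 hr mouse 2 were among the 69. Leaving out both the naive choroid plexus library and 2 hr mouse 1, chosen after seeing the data, gave 214. For 2 against 1 hr (106 calls), DESeq2 gave 162 and no filter 175, and leaving out 1 mouse gave 46 to 223. For 2 against 4 hr (10 calls), leaving out 1 mouse gave 2 to 17. For first against repeated cocaine (1 call), no filter gave 29, the fit without the naive choroid plexus library 0, and leaving out 1 mouse 0 to 11. For first cocaine against challenge (0 calls), DESeq2 gave 2, no filter 26, the replicate block 1, a block for the 2 experiments of repeated cocaine (chosen after seeing the data) 2, and leaving out 1 mouse 0 to 14. With that experiment block, repeated cocaine alone gave 12 calls at 2 hr, and 8 of the 69 were called higher.

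Replicate numbers do not pair the mice: deviations of same-numbered naive and 2 hr mice correlated at -0.00334, -0.0326, -0.0408 and 0.0328. With the replicate block, 75 genes were called at 2 hr, 133 against 1 hr, 11 against 4 hr and 1 for first against repeated cocaine.

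Of 378 values of the 32 named genes under 12 other settings, 227 kept direction and call, 141 lost the call, 5 gained it and 5 changed sign. Fmod (-3.20) ranged from -3.633 to 0.215 when 1 mouse was left out, with the positive value without naive mouse 1, and was at 0.345 without 2 hr mouse 1 as well. In second libraries, Dnajc19 was at 0.070, Dlg2 at -0.075 and Acvr1 at -0.03. Nr4a3, Dusp14 and Egr4 were called under all 20 settings, with log2FC of 1.36 to 1.86, 0.754 to 1.504 and 1.01 to 1.44. The cause of these changes was not tested.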

Other observations

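Further genes called at 2 hr, chosen after their values were seen, lie outside of the gene lists. Htr1b, the serotonin 1B receptor, was at 80.3, 83.8, 98.1 and 95.1 CPM in naive mice and at 96.2, 144, 135 and 129 CPM at 2 hr (log2FC 0.49 ± 0.10, adjusted p = 0.0168, edgeR), with 2 hr mouse 1 inside the naive range. Irs2, an adaptor of the insulin receptor, was at 58.7 to 74.9 CPM in naive mice and at 60.4, 138, 105 and 131 CPM at 2 hr, and again mouse 1 was inside the naive range. Sgms1, a sphingomyelin synthase, was at 21.2 to 24.4 CPM in naive mice and at 32.9, 36.6, 37.7 and 35.7 CPM at 2 hr, with no overlap and with mouse 1 near the others (log2FC 0.62 ± 0.12, adjusted p = 0.0136, edgeR). Lrrk2, a kinase of striatal neurons, was at 79.3 to 120 CPM in naive mice and at 129, 196, 135 and 162 CPM at 2 hr, also with no overlap (log2FC 0.63 ± 0.12, adjusted p = 0.0148, edgeR). All 4 genes were also called without naive mouse 1.

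In the second libraries of naive mice 3 and 4 and 2 hr mice 1 and 4, Lrrk2 was at 180 and 169 CPM against 164 and 213 CPM, so that mouse 1 was below both naive mice. Sgms1 was at 36.7 and 33.2 against 60.1 and 39.2 CPM, Irs2 at 77.5 and 67.3 against 104 and 171 CPM and Htr1b at 116 and 103 against 116 and 164 CPM. For these 3 genes both mice at 2 hr were above both naive mice, for Htr1b by less than 1 CPM in mouse 1.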
